A study of Mus musculus with 48 samples.

Results

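The passage from acute lung injury to the fibrotic phase was followed in airspace macrophages that lacked Siglec-F, by setting 3 knockout (KO) mice killed 14 days after bleomycin against 3 KO mice killed 7 days after it. These 6 mice were chosen by genotype, treatment and day as the labels give them, out of 24 male mice in the series, and every expressed gene was taken: 12634 of the 24411 genes in the count table passed the filter on low counts. Both KO groups carried the same Siglec-F deficiency and received bleomycin at 2.5 units/kg into the airway, and they differed by the day of lavage. Wild type (WT) mice given the same dose and sampled on days 14 and 7, 3 per day, were used for comparison. KO mice given saline (naive, day 0) and KO mice at day 21 after bleomycin gave the levels before and after. The cells came from bronchoalveolar lavage (BAL), each mouse was sampled once, and neither the sorting of the cells nor the age or strain of the mice is given in the sources used here.

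Siglec-F is a receptor for sialic acids found on alveolar macrophages, the long-lived phagocytes that clear surfactant lipid from the air spaces. Bleomycin breaks DNA and injures the alveolar lining. In mice this draws monocytes into the air spaces, where they turn into macrophages during the following weeks, while fibroblasts lay down collagen. Markers therefore read out a mixture of resident cells, cells that have just arrived and cells in between. In RNA taken from many lavaged cells at once, a fall of a marker can come from fewer cells of a type or from less RNA per cell. These cannot be told apart.

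Library totals ran from 24877049 to 33302197 counts in KO mice at day 14, against 34537505 to 37581947 counts in KO mice at day 7, so every day 14 library was shallower than every day 7 library. Thinning all libraries to equal totals left 1861 genes called, against 1897 without thinning. Siglecf itself held 0, 4 and 4 counts in the KO day 14 mice and 6, 9 and 2 counts in the KO day 7 mice, while the 6 WT mice of these days held 2714 to 5669 counts. Genes common to macrophages were abundant in both KO groups: Cd68 averaged 1600 CPM at day 14 against 1510 CPM at day 7, and Adgre1, the F4/80 antigen, 436 CPM against 451 CPM. CPM is a gene's share of its library's counts after TMM scaling, on the CPM scale of edgeR. Transcripts of Lyz2, the lysozyme of myeloid cells, had 39900, 31000 and 24400 CPM in KO day 14 mice 1, 2 and 3, against 14300, 17900 and 19100 CPM in KO day 7 mice, and rose 1.86-fold (edgeR adjusted p = 0.0013). Epithelial transcripts differed between the KO day 14 mice, as described with the cell markers below.

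Between days 7 and 14, 1897 genes changed in KO mice, which is 15.0% of the 12634 tested (edgeR quasi-likelihood test, Benjamini-Hochberg adjusted p under 0.05 over all genes tested, n = 3 mice per group). Of these, 858 were higher at day 14 (6.79%) and 1039 were lower (8.22%). Large falls outnumbered large rises: 405 of the called genes were at least 2-fold lower and 157 at least 2-fold higher. The mice of the groups did not overlap for 1795 of the called genes, and for 4141 of all genes tested (32.8%). The median log2 fold change over all genes was 0. The count depended on single mice. Leaving out KO day 7 mouse 1 gave 899 calls, KO day 14 mouse 3 gave 1014 and KO day 14 mouse 2 gave 1130, and 1320 to 2027 came from leaving out 1 of the other 3 mice.

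**Figure D1:**
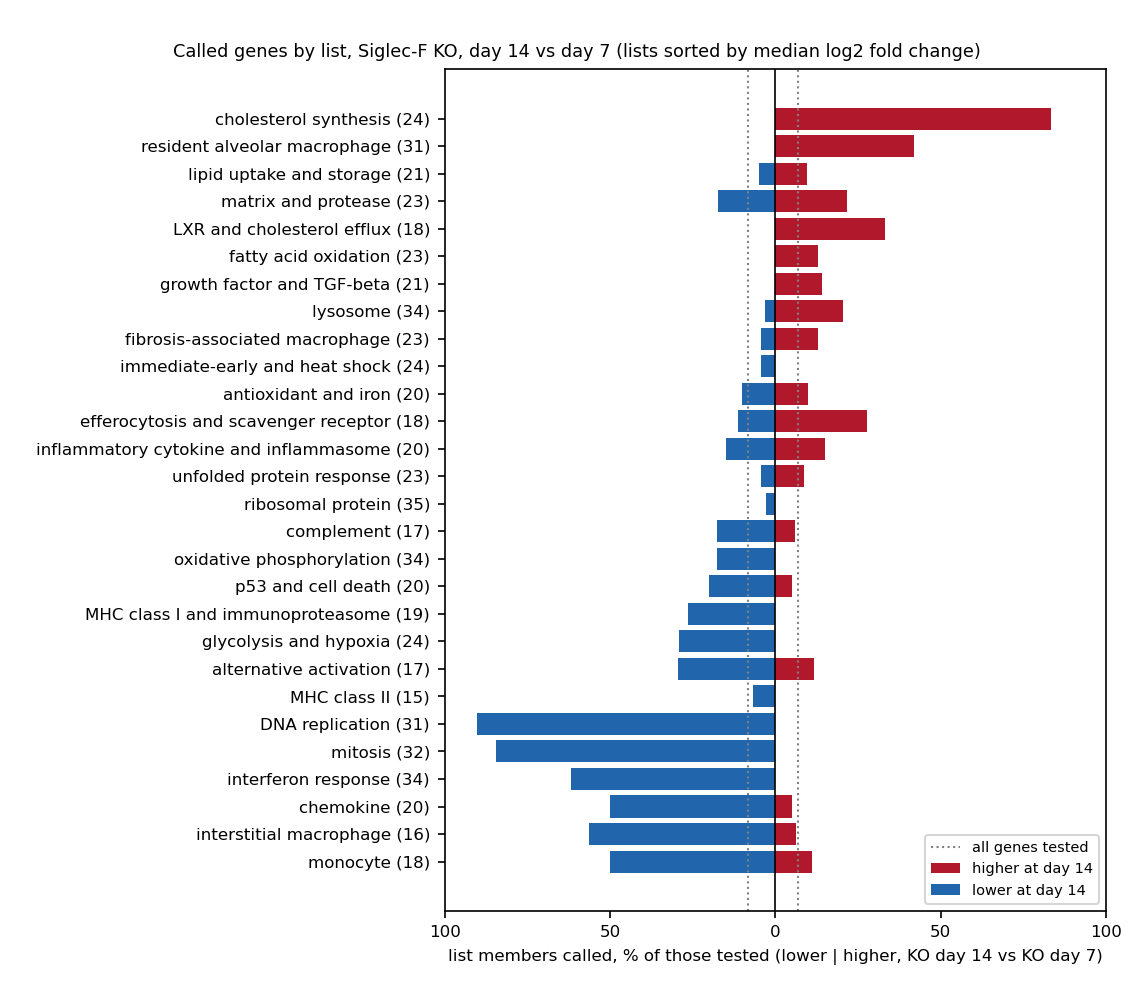
Share of the tested members of each gene list that was higher (right) or lower (left) at day 14 than at day 7 in KO mice, with the number tested in brackets and dotted lines at the shares over all genes. Cholesterol synthesis stands at the top with 20 of 24 genes higher, and DNA replication and mitosis reach furthest to the left with 28 of 31 and 27 of 32 genes lower.

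Genes of the cholesterol synthesis list formed the most uniform rise. All 24 tested members had a positive log2 fold change, 20 were called higher and 0 lower, and the median log2 fold change was 0.76. These genes are switched on by SREBP2, a membrane-bound transcription factor that is released when sterol in the endoplasmic reticulum is low. Insig1, which holds SREBP in the endoplasmic reticulum, had 147, 181 and 169 CPM in KO day 14 mice and 78.1, 95.6 and 77.3 CPM in KO day 7 mice. The lowest day 14 mouse thus stood above the highest day 7 mouse, and the log2 fold change was 0.99 (SE 0.14, adjusted p = 0.00017). The enzymes moved alike: Cyp51, lanosterol demethylase, rose 2-fold, Sqle, squalene epoxidase, 2.06-fold, and Hmgcs1, which makes HMG-CoA, 1.91-fold. Srebf2, which encodes SREBP2, rose 1.41-fold and was named after its values were seen. Mvk, Hsd17b7, Tm7sf2 and Ebp were not called, with log2 fold changes of 0.46, 0.62, 0.63 and 0.12. Leaving out single mice gave 14 to 21 calls.

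The sequence upstream of these genes was read where the RefSeq promoter table (GRCm38.p6) held it, because members of a list that move together may share promoter elements. The 250 bases before the annotated start were searched on both strands in 9613 of the 12634 genes tested, and in 17 of the 24 cholesterol genes. The sterol regulatory element, searched as TCACNCCAC, was found in 1 of the 17, Hmgcs1, against 1.17% of all genes. A CCAAT box, the element bound by NF-Y, was found in 16 of the 17 (94.1%), against 40.5% of all genes. The Hmgcs1 window (chr13:119690101-119690350, plus strand) is shown because it carries the sterol element, in capitals.
Hmgcs1: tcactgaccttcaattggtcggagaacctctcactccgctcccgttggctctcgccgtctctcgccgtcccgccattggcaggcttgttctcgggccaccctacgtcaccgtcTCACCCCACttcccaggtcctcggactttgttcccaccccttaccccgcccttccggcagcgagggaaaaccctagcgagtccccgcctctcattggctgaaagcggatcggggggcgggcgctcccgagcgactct
A match is a string of letters and was not tested for binding, and a window without one says nothing of the factor.

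Resident alveolar macrophage genes rose as a group. Of 31 tested, 13 were higher and 0 lower, with a median log2 fold change of 0.68. The 31 include Siglecf, the gene knocked out in these mice, which held 0 to 9 counts per mouse. It also enters the list means given below. Pparg, a nuclear receptor these macrophages need for their identity, had 108, 163 and 190 CPM in KO day 14 mice, against 64, 67.4 and 104 CPM in KO day 7 mice (log2 fold change 0.97, SE 0.19, adjusted p = 0.0018). Itgax, the CD11c integrin chain, had 1530, 1780 and 1790 CPM at day 14 and 964, 1010 and 876 CPM at day 7, with no overlap of the mice. Atp6v0d2, a subunit of the vacuolar proton pump, rose 1.72-fold, the arginine transporter gene Slc7a2 1.53-fold and Olr1, a receptor for oxidised lipoprotein, 1.8-fold. Chil3, the chitinase-like protein Ym1, rose 2.21-fold. Several defining markers did not pass: Fabp1 had 3.74, 18.2 and 35.7 CPM at day 14 against 8.98, 5.28 and 9.02 CPM at day 7, and Krt79 had 9.13, 98.3 and 214 CPM against 43.1, 29.4 and 28 CPM. For both, mouse 1 of day 14 lay below the day 7 mice and mouse 3 far above them. Car4 (adjusted p = 0.062), Fabp4 (0.12) and Marco (0.93) were not called either. Without KO day 7 mouse 1 the list held 8 calls.

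Monocyte genes fell. Of 18 tested, 9 were lower and 2 higher, and the median log2 fold change was -1.55. Ly6c2, a surface antigen of classical monocytes (chromosome 15, 75108158 to 75111970), had 2.22, 0.545 and 0.239 CPM in KO day 14 mice, against 84.6, 87.4 and 59.2 CPM in KO day 7 mice. That is 81.8-fold lower (log2 fold change -6.35, SE 0.72, adjusted p = 2.9e-05), although reads of Ly6c2 and of its close relatives may not be fully separated. Ccr2, the chemokine receptor with which monocytes leave the marrow, fell 6.47-fold to 67.2, 58.4 and 26 CPM at day 14, against 359, 346 and 274 CPM at day 7. Itgam, the CD11b integrin chain, fell 7.82-fold, Ms4a4c 16.2-fold and Cx3cr1, the fractalkine receptor, 4.69-fold. Plac8 fell 35.3-fold, a call lost without KO day 14 mouse 2, KO day 14 mouse 3 or KO day 7 mouse 2. Both genes that were higher, Chil3 and Ace, are also made outside monocytes: Chil3 is on the resident list too, and Ace, angiotensin-converting enzyme, was named after its values were seen. Ace rose 2.92-fold, and its call was lost without KO day 14 mouse 1, KO day 7 mouse 1 or KO day 7 mouse 2.

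Interstitial macrophage genes took the same course, with 9 of 16 lower, 1 higher and a median log2 fold change of -1.48. The list is not independent of the others. It shares Cx3cr1 with the monocyte list, Ccl12 and Pf4 with the chemokine list and C1qa with the complement list. Gas6 and Stab1 are also on the list of receptors and opsonins for dying cells. Tmem119, best known from microglia, fell 22.5-fold. Stab1, a scavenger receptor, had 32.5, 19.4 and 8.05 CPM in KO day 14 mice and 302, 342 and 141 CPM in KO day 7 mice. C1qa, a chain of complement C1q, had 634, 378 and 145 CPM at day 14 and 1420, 1390 and 637 CPM at day 7. Day 14 mouse 1 and day 7 mouse 3 were nearly level, and the 2.98-fold fall (adjusted p = 0.038) was lost without KO day 14 mouse 2, KO day 14 mouse 3, KO day 7 mouse 1 or KO day 7 mouse 2. Mrc1, the mannose receptor, was the member that rose (1.61-fold), and it stands on the resident list as well.

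**Figure D2:**
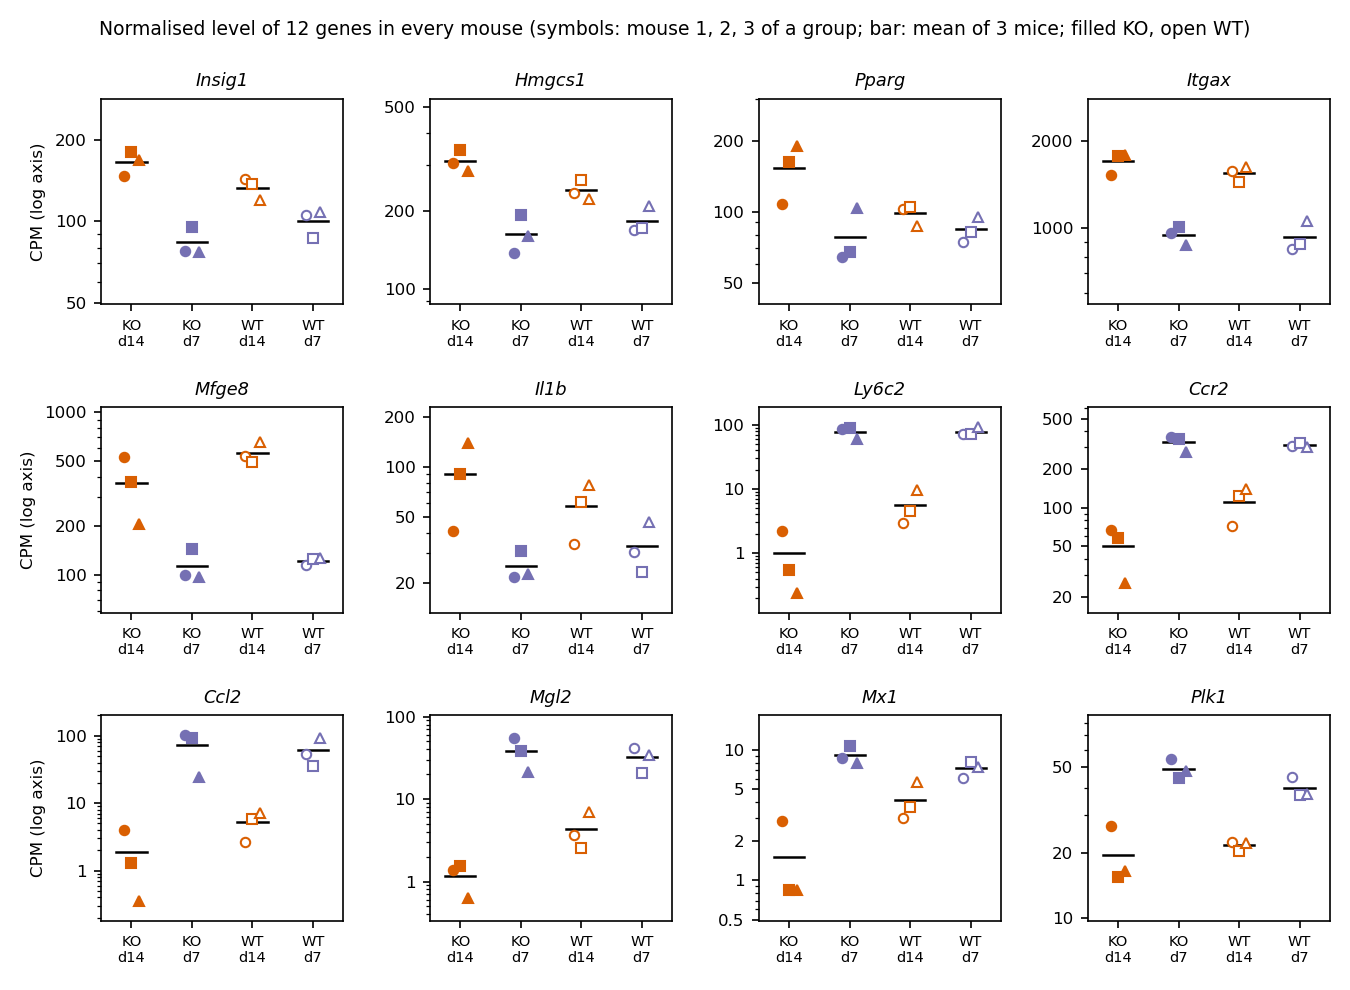
Level of 12 genes in CPM on log axes, 1 symbol per mouse and a bar at the mean of 3 mice, in KO day 14, KO day 7, WT day 14 and WT day 7 mice. In KO mice Ly6c2 lies between 0.239 and 2.22 CPM at day 14, against 59.2 to 87.4 CPM at day 7, and Insig1 lies between 147 and 181 CPM, against 77.3 to 95.6 CPM.

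The chemokines that recruit monocytes were among the steepest falls. Of 20 chemokine genes tested 10 were lower, 1 was higher and the median log2 fold change was -1.3. Ccl7, Ccl2 and Ccl12 lie close together on chromosome 11 and encode ligands of Ccr2. Ccl2 had 3.95, 1.3 and 0.359 CPM in KO day 14 mice, against 101, 94 and 24.4 CPM in KO day 7 mice (log2 fold change -5.35, SE 0.84, adjusted p = 0.00033). The fall was 58.8-fold for Ccl7 and 34.2-fold for Ccl12, with no overlap of the mice for any of the 3. Cxcl10, which draws T cells, fell 3.24-fold, Pf4, platelet factor 4, 5.82-fold and Ccl17, which draws T helper cells, 4.56-fold. The member that rose was Ccl6, named after its values were seen, with a log2 fold change of 0.41. Its call was lost without any 1 mouse but KO day 14 mouse 1. It was also lost with median-ratio scaling, the compared groups alone, the replicate block, no filter and the test against a 1.2-fold change. Without KO day 14 mouse 3 or KO day 7 mouse 2, or with the KO day 14 and KO day 7 mice fitted alone, 6 chemokine genes were lower.

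Inflammatory cytokine and inflammasome genes were split, with 3 of 20 higher and 3 lower. Il1b, interleukin 1 beta, had 40.8, 90.3 and 139 CPM in KO day 14 mice and 21.7, 31 and 22.6 CPM in KO day 7 mice, a 3.59-fold rise (adjusted p = 0.018). Its call was lost without KO day 14 mouse 3, KO day 7 mouse 1 or KO day 7 mouse 3. Il18 rose 1.76-fold. Pycard, the inflammasome adaptor, fell 1.83-fold, and Gsdmd, the pore-forming gasdermin D, fell 1.3-fold, a call lost without KO day 14 mouse 3. The remaining calls were Il1a, higher, and Tnf, lower, both named after their values were seen. Both calls were lost without KO day 14 mouse 3 or KO day 7 mouse 1, that of Il1a also without KO day 14 mouse 1 or KO day 7 mouse 3, and that of Tnf also without mouse 2 of either day.

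Genes of alternative activation, the state induced by interleukin 4, did not move together: 5 of 17 were lower and 2 higher. Mgl2, a galactose-binding lectin, had 1.36, 1.53 and 0.628 CPM in KO day 14 mice, against 55.3, 38.1 and 21.1 CPM in KO day 7 mice. The 32.9-fold fall (adjusted p = 4.2e-06) was among the smallest p-values of the named genes. Clec10a, a close relative whose reads may not be fully separated from it, fell 7.92-fold and Irf4, a transcription factor, 2.47-fold, while Chil3 and Mrc1 rose. Arg1, arginase 1, had 206, 135 and 65.6 CPM against 333, 704 and 177 CPM and was not called (adjusted p = 0.15).

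Interferon response genes fell broadly. Of 34 tested, 33 had a negative log2 fold change, 21 were called lower and 0 higher, and the median log2 fold change was -1.29. Mx1, a dynamin-like antiviral protein, had 2.84, 0.852 and 0.838 CPM in KO day 14 mice, against 8.66, 10.8 and 7.92 CPM in KO day 7 mice (log2 fold change -2.62, SE 0.51, adjusted p = 0.0018). Bst2, tetherin, had 59.6, 33.6 and 26.6 CPM at day 14 and 110, 119 and 76.5 CPM at day 7. Oas1a, a sensor of double-stranded RNA, fell 2.14-fold and Oasl2 4.25-fold. Irf7, the transcription factor that amplifies the response, fell 4.3-fold and was named after its values were seen. In each of these genes mouse 1 was the highest of the 3 day 14 mice, and it was the day 14 mouse nearest to the day 7 mean for all 21 called genes. The list held 29 calls with that mouse left out, 11 with day 14 mouse 2 left out and 10 with day 14 mouse 3 left out. Fitted on the KO day 14 and KO day 7 mice alone, it held 12.

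The interferon-stimulated response element, searched as GAAA, any 2 bases and GAAA again on both strands of the same windows, was found in 13 of 25 interferon genes with a window (52%), against 3.33% of all genes. The windows of Cxcl10 (chr5:92348890-92349139, minus strand) and Bst2 (chr8:71537473-71537722, minus strand) are shown as members with small adjusted p-values that hold the element, with the element in capitals. In Bst2 a pair of matches overlaps, starting 130 and 124 bases before the start.
Cxcl10: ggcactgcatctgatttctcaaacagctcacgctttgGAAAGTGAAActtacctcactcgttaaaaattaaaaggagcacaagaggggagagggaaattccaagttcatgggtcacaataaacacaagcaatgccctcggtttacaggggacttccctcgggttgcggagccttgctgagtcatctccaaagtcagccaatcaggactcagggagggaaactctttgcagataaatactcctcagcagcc
Bst2: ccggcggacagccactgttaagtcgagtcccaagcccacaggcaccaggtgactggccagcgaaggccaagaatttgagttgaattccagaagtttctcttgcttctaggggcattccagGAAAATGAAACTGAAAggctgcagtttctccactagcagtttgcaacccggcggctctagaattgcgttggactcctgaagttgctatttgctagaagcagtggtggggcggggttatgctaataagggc
The element starts 213 bases before the annotated start in Cxcl10.

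Antigen presentation lists held smaller shares of calls than the interferon list (61.8%), with 26.3% for class I and 6.67% for class II. The share over all genes was 15.0%. Median log2 fold changes were -0.24 and -0.69, and 16 of 19 and 11 of 15 genes were negative. Every KO day 14 mouse lay below every KO day 7 mouse for 8 class I and 7 class II genes, against 17.2% of all genes. Of 19 genes of MHC class I and the immunoproteasome 5 were lower and 0 higher: Tap1, the peptide transporter, fell 1.84-fold and Psmb8, an immunoproteasome subunit, 1.48-fold, and Psmb9, Psme2 and Erap1 fell too. Without KO day 14 mouse 2 or 3, or without KO day 7 mouse 1, 1 call was left. Of 15 MHC class II genes 1 was lower, H2-Eb1 (2.99-fold, adjusted p = 0.04). H2-Ab1 had 956, 560 and 332 CPM in KO day 14 mice and 1740, 1610 and 1000 CPM in KO day 7 mice, which do not overlap, at an adjusted p of 0.083. The class II list held 6 calls without KO day 14 mouse 1 and 0 without KO day 14 mouse 2 or 3 or KO day 7 mouse 1 or 2.

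The cell cycle genes fell most completely. Of 31 DNA replication genes 28 were lower, with a median log2 fold change of -0.87, and of 32 mitosis genes 27 were lower, with a median of -0.95; 0 were higher in either list. Mcm5, a subunit of the replicative helicase, had 36.6, 33.1 and 32.2 CPM in KO day 14 mice and 79.8, 62.6 and 91.1 CPM in KO day 7 mice (log2 fold change -1.2, SE 0.12, adjusted p = 4.2e-06). Rrm2, a subunit of ribonucleotide reductase, fell 1.92-fold, Mcm3 1.77-fold and Mcm6 1.97-fold. Plk1, a mitotic kinase, had 26.7, 15.5 and 16.5 CPM at day 14 and 54.2, 44.3 and 47.9 CPM at day 7. Racgap1, needed for cytokinesis, fell 1.93-fold, Cdk1 1.87-fold and Foxm1, the transcription factor of the late cycle, 2.17-fold. Mki67, the proliferation antigen, was an exception with 74.6, 65.2 and 63.7 CPM against 40.8, 87 and 78.8 CPM (log2 fold change -0.02). The other members not called were Bub1b, Kif23, Cenpf and Cenpe among mitosis genes and Mcm10, Rfc4 and E2f1 among replication genes. Leaving out single mice gave 24 to 29 and 24 to 27 calls.

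In the promoter windows, the cell-cycle homology region, searched as TTTGAA, was found in 9 of 26 mitosis genes (34.6%), against 12.8% of all genes, and the CCAAT box in 21 of the 26 (80.8%). An E2F element, searched as GCGGGAA, was found in 8 of 25 replication genes (32%) and in 0 of the 26 mitosis genes, against 8.18% of all genes. Cdc20 (chr4:118437344-118437593, minus strand) and Cdk1 (chr10:69352913-69353162, minus strand) are shown as members with small adjusted p-values that hold the homology region, in capitals. A match starts 18 bases before the annotated start in Cdc20, and matches start 71 and 15 bases before it in Cdk1.
Cdc20: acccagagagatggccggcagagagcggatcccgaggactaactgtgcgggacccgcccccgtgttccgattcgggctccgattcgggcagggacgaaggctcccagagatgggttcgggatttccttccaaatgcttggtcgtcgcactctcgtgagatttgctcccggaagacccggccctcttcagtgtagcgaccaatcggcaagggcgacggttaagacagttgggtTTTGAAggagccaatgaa
Cdk1: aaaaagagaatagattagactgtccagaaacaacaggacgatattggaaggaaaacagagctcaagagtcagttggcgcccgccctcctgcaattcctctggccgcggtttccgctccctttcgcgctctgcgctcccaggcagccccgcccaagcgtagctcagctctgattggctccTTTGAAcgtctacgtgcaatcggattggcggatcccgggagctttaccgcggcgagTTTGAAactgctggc

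Genes of fibrosis-associated macrophages did not move as a group in KO mice. Of 23 tested, 3 were higher and 1, Ccl2, lower, with a median log2 fold change of 0.06. The share called was 17.4%, against 15.0% over all genes. Spp1, osteopontin, had 15900, 11200 and 5260 CPM in KO day 14 mice and 4020, 7970 and 2400 CPM in KO day 7 mice, which overlap, and its log2 fold change of 1.16 was not called (SE 0.45, adjusted p = 0.091). Gpnmb, a lysosomal glycoprotein, had 1410, 996 and 964 CPM against 1460, 1360 and 1130 CPM. Trem2, a lipid receptor, had 277, 220 and 139 CPM against 251, 259 and 161 CPM. Apoe (log2 fold change 0.61), Fn1 (0.42), Mmp12 (0.06) and Igf1 (0.59) were not called either. The 3 that rose were Cd9, a tetraspanin (1.46-fold), Mertk, a receptor for dying cells (1.56-fold), and Ctsd, cathepsin D (1.38-fold, lost without any 1 of the 6 mice but KO day 14 mouse 3).

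Matrix and protease genes were split, with 5 of 23 higher and 4 lower. Mmp19, a metalloproteinase, averaged 601 ± 145 CPM in KO day 14 mice and 226 ± 57.9 CPM in KO day 7 mice, which do not overlap (SD, n = 3 each). The day 7 mice had 192, 293 and 193 CPM (log2 fold change 1.41, SE 0.19, adjusted p = 0.00011). Plau, urokinase, fell 2.67-fold to 46.9, 32.2 and 25.2 CPM at day 14, against 95.6, 123 and 59.8 CPM at day 7. Thbs1, thrombospondin 1, which can release TGF-beta from its latent form, fell 14.2-fold. Without KO day 14 mouse 2 or 3 or KO day 7 mouse 2, 3 matrix genes were higher, and 2 without KO day 7 mouse 1. Mmp14 was not called (log2 fold change -0.99, adjusted p = 0.2). Among 21 genes of growth factors and TGF-beta signalling, 3 were higher and 0 lower. This is 14.3% of the list, against 6.79% called higher over all genes and 15.0% called in either direction. Tgfbr2, a TGF-beta receptor chain, rose 1.48-fold. Osm rose 2.22-fold and Tgfb2 2.61-fold, but the first call was lost without any 1 of the 6 mice and the second without any 1 but KO day 7 mouse 3. Pdgfc had a log2 fold change of 0.31 and was not called. Tgfb1 (0.1) and Pdgfb (-0.46) were not called.

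Receptors and opsonins for dying cells rose in part: 5 of 18 genes were higher and 2 lower. Mfge8, which bridges dying cells to phagocytes, had 529, 373 and 204 CPM in KO day 14 mice and 98.7, 143 and 96.2 CPM in KO day 7 mice (log2 fold change 1.71, SE 0.32, adjusted p = 0.0012). Pros1, protein S, which bridges dying cells to Mertk, rose 2.23-fold, whereas Gas6, the other bridge, fell with a log2 fold change of -1.46 and was named after its values were seen. The call of Gas6 was lost without KO day 14 mouse 2 or 3 or KO day 7 mouse 1 or 2. Of 18 LXR target and cholesterol efflux genes 6 were higher and 0 lower. They were Nr1h3, which encodes LXR alpha (1.52-fold), Scd1, stearoyl-CoA desaturase (2.52-fold), Abcg1, a sterol exporter (1.6-fold), Srebf1, Scd2 and the apolipoprotein gene Apoc1. Apoc1 had 15.7, 6.61 and 5.32 CPM in KO day 14 mice against 0.468, 1.66 and 1.44 CPM in KO day 7 mice, and its 7.72-fold rise was the steepest among the genes eligible for naming. Abca1, the other main exporter, had a log2 fold change of -0.08. Without KO day 14 mouse 2 or KO day 7 mouse 1 or 2, 3 of the 6 were called.

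Glycolysis and hypoxia genes had 7 of 24 lower and 0 higher, among them Pgk1 (1.61-fold), Eno1 (1.6-fold), Hk3 (1.4-fold) and Gapdh (1.32-fold). Nuclear genes of oxidative phosphorylation had 6 of 34 lower and 0 higher, led by Cycs, cytochrome c (1.47-fold). That is 17.6% of the list, against 8.22% called lower over all genes and 15.0% called in either direction. The median log2 fold change was -0.18, and 31 of the 34 genes were negative. Without KO day 14 mouse 2 or 3 or KO day 7 mouse 1 or 2, 3 or 4 glycolysis genes were called, and without any 1 of the 6 mice 1 to 4 oxidative phosphorylation genes. Fatty acid oxidation had 3 of 23 higher (Cpt2 and Acads among them), which is 13% of the list, against 6.79% called higher over all genes. Lipid uptake and storage had 2 of 21 higher and 1 lower, which is 14.3%. Both shares were near the 15.0% called in either direction over all genes. Lipid genes had 4 higher without KO day 14 mouse 1. Lysosome genes had 7 of 34 higher and 1 lower. Without KO day 14 mouse 3 or KO day 7 mouse 1 or 2, 1 fatty acid oxidation gene was called, and without KO day 14 mouse 2 or KO day 7 mouse 1, 4 lysosome genes were higher. Ctsf, cathepsin F, led the lysosome list with a 2.94-fold rise. Pnpla2, the lipase that opens lipid droplets, rose 1.67-fold. Slc40a1, the iron exporter ferroportin, rose 2.96-fold, while Slc11a1, which pumps iron out of phagosomes, fell 3.31-fold, a call lost without KO day 14 mouse 3 or KO day 7 mouse 1. They belong to a list of 20 antioxidant and iron genes with 2 higher and 2 lower, which is 20%, against 15.0% over all genes.

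The share of genes called was 4.17% for immediate-early and heat shock, 2.86% for ribosomal protein and 13% for unfolded protein response genes. It was 23.5% for complement and 25% for p53 and cell death genes, against 15.0% over all genes. Of 24 immediate-early and heat shock genes 1 was lower (Jun, 2.06-fold), of 35 ribosomal protein genes 1 was lower (Rpl30, 1.8-fold, lost without KO day 7 mouse 1) and of 23 unfolded protein response genes 2 were higher and 1 lower. The unfolded protein response list had 4 higher without KO day 14 mouse 1 and 0 without KO day 14 mouse 2 or 3 or KO day 7 mouse 1 or 2. Of 17 complement genes 1 was higher (Itgax) and 3 lower (Itgam, C3ar1 and C1qa). Of 20 p53 and cell death genes 1 was higher (Gadd45a, 1.83-fold) and 4 were lower, including Bcl2, which fell 4.12-fold with its call lost without KO day 14 mouse 3 or KO day 7 mouse 1 or 2. That list had 0 lower without KO day 14 mouse 3 or KO day 7 mouse 1, 1 without mouse 2 of either day and 6 without KO day 7 mouse 3.

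Among the 12 largest rises and 12 largest falls of genes with at least 5 CPM and no overlap, several belong to no list above. Spon1, an extracellular matrix protein of the spondin family, had 0.247, 0 and 0 CPM in KO day 14 mice and 4.61, 17.1 and 5.55 CPM in KO day 7 mice, the steepest fall. It rests on 6 counts over the 3 day 14 libraries, against 1025 counts over the day 7 libraries. Plbd1, a phospholipase B-like protein, fell 18.8-fold, Ms4a6b, a membrane protein of the MS4A family, 19-fold, Ifitm3, an antiviral membrane protein, 18.1-fold and Ly6a, the Sca-1 antigen, 17.8-fold. Lif, a cytokine of the interleukin 6 family, had 9.95, 8.83 and 10.9 CPM at day 14 and 1.43, 3.85 and 1.55 CPM at day 7 (log2 fold change 2.12, SE 0.45, adjusted p = 0.0029). Cited4, a transcriptional coregulator, rose 4.62-fold and Adcy4, an adenylyl cyclase, 3.48-fold, with calls that held on leaving out each of the 6 mice. Tln2, talin 2, rose 6.91-fold, March4, a membrane ubiquitin ligase, 5.59-fold, C4b, complement component 4, 4.17-fold, Mlph, melanophilin, 3.59-fold, Plekha6 3.54-fold and Lrg1, a secreted leucine-rich glycoprotein, 3.43-fold. The calls of these 6 depended on single mice. C4b lost its call without any 1 of the 6 mice, Plekha6 without KO day 14 mouse 1 or KO day 7 mouse 1, and the other 4 without KO day 14 mouse 3, KO day 7 mouse 1 or KO day 7 mouse 3, Tln2 and Lrg1 also without KO day 14 mouse 2.

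Markers of other lavage cells were read beside these changes. Over all genes 15.0% were called, 6.79% higher and 8.22% lower. The share called was 10% for neutrophil, 16.7% for B and plasma cell and 25% for eosinophil, mast cell and basophil genes. Each of these shares rests on 1 called gene. It was 37.5% for dendritic cell, 42.9% for stromal and endothelial and 5.88% for epithelial genes. Dendritic cell genes had 6 of 16 lower and 0 higher, including Kmo, Cd209a, Mgl2 and Bst2, with 3 lower without KO day 14 mouse 3. Mgl2 is also on the alternative activation list and Bst2 on the interferon list. The dendritic cell list summed to 140 to 251 CPM in KO day 14 mice and 260 to 331 CPM in KO day 7 mice. T and NK cell genes had 0 of 20 called by edgeR and 1 lower by DESeq2 and limma-voom, with a median log2 fold change of -0.84 and a sum of 162 to 306 CPM in KO day 14 mice against 157 to 174 CPM in KO day 7 mice. Cd3e had 3.25, 0.989 and 1.29 CPM at day 14 and 2.08, 4.8 and 3.95 CPM at day 7. Of 10 neutrophil genes 1 was called, Mmp8, higher and lost without any 1 mouse but KO day 14 mouse 1, with the list at 201 to 378 CPM in KO day 14 mice and 138 to 155 CPM in KO day 7 mice. Of 6 tested B and plasma cell genes 1 was higher, Cd22 (2.05-fold), which had 204 CPM in naive KO mice as well, while Pax5 did not pass the filter. Of 4 eosinophil, mast cell and basophil genes 1 was lower, Kit, and the list summed to 3.72 to 6.13 CPM against 7.52 to 9.6 CPM. Of 7 stromal and endothelial genes 2 were lower (Kdr and Acta2) and 1 higher (Vwf, lost without KO day 7 mouse 1). The median log2 fold change was -1.74, with 5 of the 7 negative. Their mean of log2(CPM + 1) was 1.25 to 1.47 in KO day 14 mice and 1.67 to 1.86 in KO day 7 mice. The sum went the other way, at 123 to 129 CPM in KO day 14 mice and 70.4 to 87.8 CPM in KO day 7 mice. Dcn and the collagen genes Col1a2 and Col3a1 did not pass the filter. Of 5 red cell genes edgeR and limma-voom called 0, and 1 was higher with DESeq2 and 1 without KO day 14 mouse 1. They summed to 6.41 to 122 CPM in KO day 14 mice and 1.35 to 42.9 CPM in KO day 7 mice. Of 17 epithelial genes edgeR called 1, Hopx, which fell 4.51-fold. The median log2 fold change was 1.92, with 13 of the 17 positive. Higher calls numbered 0 in the main edgeR fit and with limma-voom, and 5 with DESeq2. In other edgeR fits they numbered 3 without KO day 14 mouse 3, 2 with no filter, 1 with the replicate block and 1 without KO day 14 mouse 1. The list summed to 172, 241 and 230 CPM in KO day 14 mice 1, 2 and 3, against 145, 157 and 142 CPM in KO day 7 mice, and Cdh1, which had 82.8, 189 and 180 CPM in the KO day 14 mice, made up much of these sums. For 11 of the 17 genes KO day 14 mouse 1 was the highest of the 6 mice. Surfactant protein C, Sftpc, had 16.3, 1.57 and 1.08 CPM in KO day 14 mice and 0.833, 0.791 and 0.524 CPM in KO day 7 mice, and Krt8 had 6.66, 0.75 and 0.509 CPM against 0.26, 0.501 and 0.0828 CPM. KO day 14 mouse 1 thus had the lowest sum of the 3 day 14 mice and the highest levels of most single genes. Without that mouse 2027 genes were called, 20 of them cholesterol genes and 26 mitosis genes. Other lists moved more. Lower calls numbered 29 against 21 for interferon, 12 against 9 for interstitial macrophage and 6 against 1 for MHC class II genes. For oxidative phosphorylation genes they went the other way, 3 against 6. The part of these cells in the results was not tested.

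In some lists the 3 KO day 14 mice were spread in the same order. For resident alveolar macrophage genes the mean of log2(CPM + 1) was 8.47 to 8.51 in naive KO mice, 7.46 to 7.62 at day 7, 7.76, 8.11 and 8.31 at day 14 and 7.66 to 8.35 at day 21. For interferon genes it was 2.54 to 2.76 in naive mice, 4.71 to 5.02 at day 7, 4.37, 3.51 and 3.12 at day 14 and 3.04 to 3.89 at day 21. For interstitial macrophage genes it was 2.41 to 2.49, 5.95 to 7.1, then 5.69, 5.17 and 4.47 at day 14, and 4.45 to 5.91 at day 21. In each of these lists mouse 1 of day 14 was nearest to day 7 and mouse 3 nearest to the naive level. Lysosome, cholesterol and DNA replication genes did not follow that order. Lysosome genes stood at 8.96 to 9.09 at day 7 and 9.32, 9.16 and 9.02 at day 14. There mouse 1 was farthest from day 7 and mouse 3 lay within the day 7 range. Cholesterol genes stood at 5.59 to 5.74 in naive mice, 6.12 to 6.33 at day 7, 6.82, 7.12 and 6.86 at day 14 and 6.03 to 6.69 at day 21, so the day 14 mice were the highest of all KO mice. DNA replication genes stood at 4.65 to 4.75 in naive mice, 4.81 to 5.21 at day 7, 4.22 to 4.31 at day 14 and 4.15 to 4.18 at day 21, below the naive mice on both later days. These values are descriptions, and the days share no mice.

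**Figure D3:**
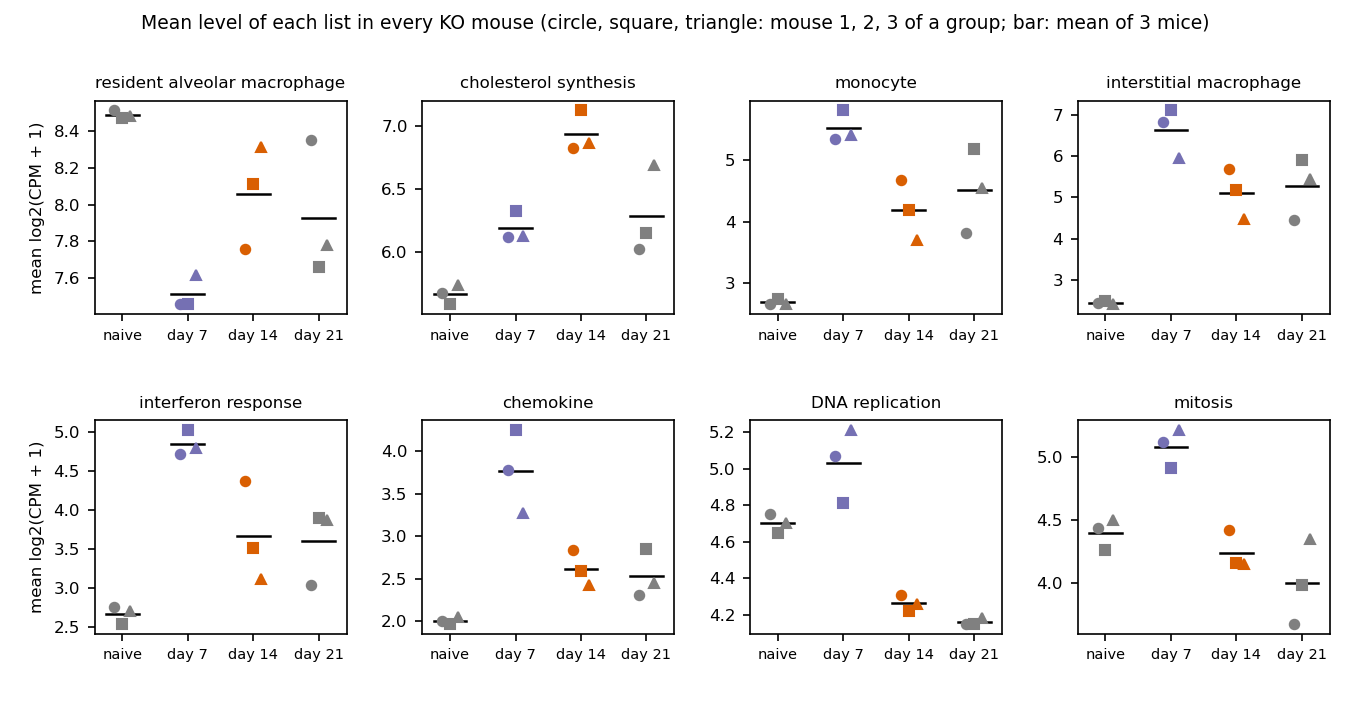
Mean of log2(CPM + 1) over the tested genes of 8 lists in each KO mouse, with naive mice, day 7, day 14 and day 21 from left to right, 1 symbol per mouse and a bar at the mean of 3 mice. The day 14 mice lie highest for cholesterol synthesis (6.82 to 7.12), and for interferon response they spread from 3.12 to 4.37, between the naive and day 7 mice.

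In WT mice the same days differed in 739 genes (5.85%), 335 higher (2.65%) and 404 lower (3.20%). These mice are separate from the KO mice. Of the KO calls 518 were also called with the same sign in WT mice, 202 higher and 316 lower, which is 27.3% of the KO calls and 70.1% of the WT calls, and 0 genes were called with opposite signs. Of the 1897 KO calls 1804 (95.1%) had a WT log2 fold change of the same sign. Across the 12634 genes the log2 fold changes of KO and WT mice had a Pearson r of 0.42 and a Spearman rho of 0.53, as a description, since genes are not independent replicates. The cell cycle lists were alike in count, with 28 replication and 27 mitosis genes lower in KO mice, against 26 and 25 in WT mice. Mmp19 had a log2 fold change of 1.41 in KO and 1.47 in WT mice. Cholesterol genes had 20 calls in KO mice and 1 in WT mice, interferon genes 21 and 2, monocyte genes 9 lower and 4 lower, and interstitial macrophage genes 9 lower and 1 lower.

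These unequal counts are not a difference between genotypes unless the difference itself passes a test, and no gene did. For (KO day 14 against day 7) minus (WT day 14 against day 7), edgeR called 0 of 12634 genes, with the smallest adjusted p at 0.47; DESeq2 and limma-voom called 0 as well. At an unadjusted p under 0.05 edgeR found 877 genes (6.94%), where 632 are expected by chance, DESeq2 933 and limma-voom 1013. All 24 cholesterol genes had a larger log2 fold change in KO than in WT mice (median difference 0.54, 14 of them at an unadjusted p under 0.05), against 6288 of 12634 genes. Insig1 differed by 0.58 (SE 0.2, unadjusted p = 0.0086, adjusted p = 0.64), with log2 fold changes of 0.99 in KO and 0.41 in WT mice. Of 16 interstitial macrophage genes 14 had the lower log2 fold change in KO mice (median difference -1.62), and of 34 interferon genes 29 (median difference -0.68). Pparg differed by 0.75 (unadjusted p = 0.011) and Hpse, heparanase, by -1.75 (unadjusted p = 0.00083). Heparanase transcripts had 32, 21.9 and 12.4 CPM in KO day 14 mice and 40.9, 43.4 and 25.5 CPM in KO day 7 mice, against 64.1, 71.3 and 100 CPM in WT day 14 mice and 39.1, 44 and 33.6 CPM in WT day 7 mice. Abca1, the sterol exporter, was named after its values were seen and differed by -1.37 (unadjusted p = 0.00029, adjusted p = 0.47), with log2 fold changes of -0.08 in KO and 1.3 in WT mice. Gpnmb differed by -0.79 (unadjusted p = 0.007), and Spp1, which was called in WT mice (log2 fold change 1.93, adjusted p = 0.017), by -0.76 (unadjusted p = 0.24). None of these differences passed the adjustment, so the data do not show that a gene changed differently with and without Siglec-F.

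**Figure D4:**
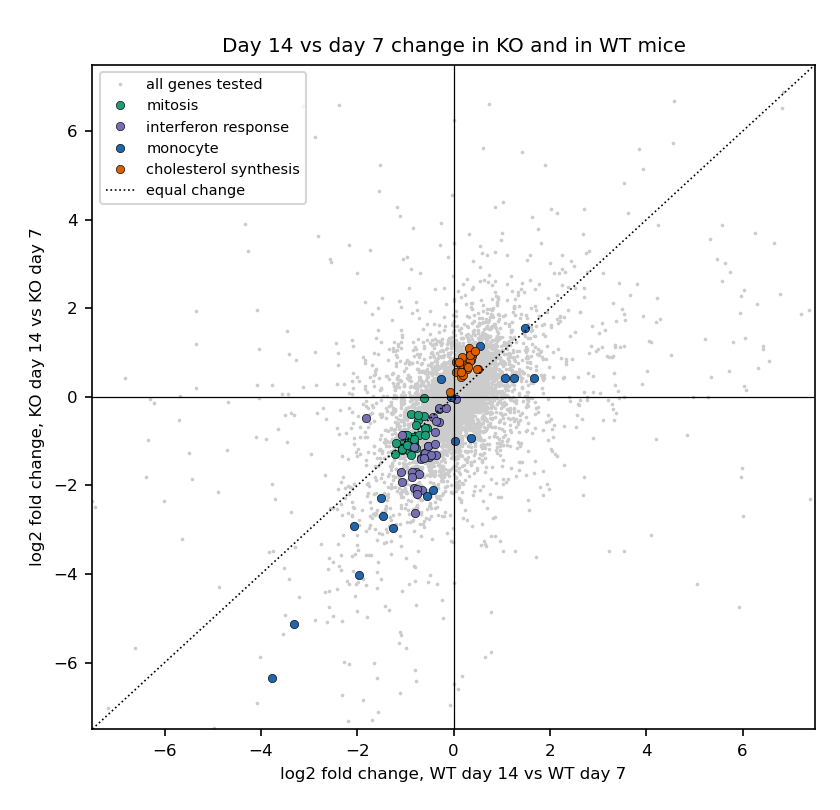
Log2 fold change of day 14 against day 7 in KO mice (vertical) and WT mice (horizontal) for the genes tested, with 4 lists coloured, a dotted line of equal change and 16 genes outside the axes. Cholesterol synthesis genes lie above the line, interferon response genes mostly below it, and mitosis genes along it.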

How the data were processed

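Airspace macrophages were lavaged from 24 mice in 8 groups of 3, as labelled, and sequenced as 150 bp paired reads from 200 ng RNA, in 2 runs per mouse per the labels. The authors deposited a table of expected counts (estimated, 3.11 to 3.85% of entries not whole) for 24411 genes. Per the submitters' processing notes the build was mm10. No source used here names the aligner or the counter, or says whether strand was used or a column sums both runs. Overlapping, antisense and near-identical genes may share reads. A further 24 columns of other samples were not used.

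Counts were rounded and tested with edgeR 4.0.16 (R 4.3.3): TMM scaling, genes kept by minimum count 10 and minimum total 15, 1 quasi-likelihood fit of 8 groups with no covariate (16 residual degrees of freedom), and Benjamini-Hochberg adjustment over 12634 genes at 0.05. CPM values are TMM-scaled. The labels give separate mice. With 3 mice per group the spread is known coarsely. Totals ran from 24877049 to 47457085 counts.

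Named genes were the 12 highest and 12 lowest called genes with a mean of at least 5 CPM and no overlap of the mice, up to 4 members per list with the smallest p, and a panel of 36 genes. Genes named outside this rule are said to be so or stand in a sentence on a list's uncalled or remaining members. The members, the 36 lists and the panel were chosen with earlier results of these data known. Some genes stand on several lists, so the counts of the lists are not independent. Alternatives were DESeq2 1.42.0, limma-voom 3.58.1, median-ratio scaling, no filter, the compared groups alone, a replicate block, thinned counts, a test against a 1.2-fold change, and leaving out each mouse. Some genes of the lists are not reported here by name. Gene positions are from GENCODE M21 (mm10), promoter windows from RefSeq.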

Additional observations from a re-analysis of the deposited data

How the results depend on the processing

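The KO count of 1897 genes was 2298 with DESeq2, 1998 with limma-voom, 1893 with median-ratio scaling, 1709 with no filter, 1861 with thinned counts and 1284 with the compared groups alone. Tested against a 1.2-fold change it was 808. Leaving out single mice gave 899 to 2027. The WT count of 739 was 1128 with DESeq2, 426 with the compared groups alone and 205 against a 1.2-fold change, and 303 to 799 on leaving out single mice. The difference between genotypes stayed at 0 genes in the alternatives run, and leaving out single mice gave 0 to 0. Of 238 named or listed genes called, 238 were called with DESeq2, 229 with limma-voom, 182 with the compared groups alone, 160 against a 1.2-fold change and 155 to 219 without single mice, and 0 changed sign. The cause of these losses was not tested. The fits without a mouse and those on the compared groups alone also held fewer samples. With the replicate block the counts were 1912 in KO mice (1805 of them shared), 709 in WT mice and 0 for the difference. The mouse numbers were not taken to pair the samples: deviations of same-numbered KO mice at days 14 and 7 correlated at 0, -0.05 and 0.32. Genes near the filter, and markers at a few counts such as Siglecf in KO mice, are limited by depth.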
